A study of Mus musculus with 3 samples.

Results

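The 35 genes described here encode the contractile lattice of cardiac muscle: the thick filament, the thin filament, titin and the M-band, the Z-disc, and the desmin, chaperone and turnover proteins that hold it together. They are a list of gene symbols grouped by what their proteins do, drawn up with earlier results of these data known, and are 35 of the 30415 symbols in the count matrices, all of them measured in all libraries. The data are single-cell RNA counts from hearts of NOD/SCID mice, an immunodeficient strain. Mice were injected on day 0 and day 7 with an isotype control antibody or with an immune checkpoint antibody, and hearts were taken on day 14, with 3 hearts pooled per group into 1 library. The libraries are called Isotype, PD1/PEM and PDL1/ATZ after their titles. The treatment tag of the PD1/PEM library reads Atezolizumab and that of the PDL1/ATZ library reads Pembrolizumab, against their titles, so no difference below is assigned to a named antibody. Since each group is 1 library, groups are not tested against each other. Intervals are at 95% and hold counting error alone.

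In a sarcomere, bipolar thick filaments of myosin pull on thin filaments of actin that are anchored in the Z-disc. Calcium binding to troponin moves tropomyosin off the actin sites and lets myosin heads attach. Titin spans from Z-disc to M-band as an elastic scaffold, and adult mouse ventricle uses mainly the alpha myosin heavy chain of Myh6.

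The Isotype library held 9510 cells and 16677883 unique molecular identifiers (UMIs, each taken as 1 captured RNA molecule), PD1/PEM 6388 cells and 14766346 UMIs, and PDL1/ATZ 11599 cells and 15144668 UMIs. Median UMIs per cell were 1532.5, 2013.5 and 1010. Mitochondrially encoded genes took 26.0% and 25.9% of UMIs in Isotype and PD1/PEM but 7.74% in PDL1/ATZ, where 9 cells lay above 25%, against 6908 and 4407 in the other two. There were 23 cell barcodes in common between Isotype and PD1/PEM and 0 between either and PDL1/ATZ. Gene symbols differed too, and 4835 were counted only in PDL1/ATZ or only in the other libraries. Mkl1 was counted 1131, 1043 and 0 times in Isotype, PD1/PEM and PDL1/ATZ, and Mrtfa 0, 0 and 1810 times. The part of gene annotation in the PDL1/ATZ values was not tested. Cardiomyocyte markers that are not members (Ryr2, Trdn, Slc8a1, Cacna1c, Ctnna3, Mlip, Rbm20, Corin, Tnni3k, Lrrc10) were measured in all libraries, their sum standing at 10044, 8060 and 3370 counts per 1000000 UMIs (CPM) in Isotype, PD1/PEM and PDL1/ATZ.

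Together the members took 3.80% of all UMIs in Isotype, 2.79% in PD1/PEM and 1.66% in PDL1/ATZ. Ttn alone supplied 31.0%, 33.5% and 17.9% of the members' UMIs, and Myh6 supplied 20.1%, 19.8% and 19.7%. The part of titin therefore differed between PDL1/ATZ and the other two libraries, while that of Myh6 lay within 1 percentage point in all 3.

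Promoter sequence is shown first for 7 members. These are the 5 found with a CArG box, the site of serum response factor, with Myoz2 and Lmod2. Of all members Actc1 had the lowest and Lmod2 the highest PD1/PEM to Isotype ratio, but the 7 were not picked by rank. RefSeq (GRCm38.p6) gave a promoter window for 30 of the 35 members. In the 250 bases before the start, searched on both strands, a CArG box was found in 5 of 30 members (16.7%) against 1.4% of 27025 promoters of all genes. A MEF2 site was found in 5 of 30 (16.7%) against 3.01%, an M-CAT site (CATTCC) in 10 of 30 (33.3%) against 12.6%, and the E-box CAGCTG in 10 of 30 (33.3%) against 12.8%. The TATA box TATAAA (10.0% against 13%) and the GATA site AGATAA (10.0% against 10.3%) stood near the share in all promoters. Each line gives the 150 bases that end just before the RefSeq start, 5′ to 3′ on the gene's strand, with matches to these 6 motifs in capitals. Matches of different motifs may overlap.
Actc1, chr2:114052876-114053025, minus strand: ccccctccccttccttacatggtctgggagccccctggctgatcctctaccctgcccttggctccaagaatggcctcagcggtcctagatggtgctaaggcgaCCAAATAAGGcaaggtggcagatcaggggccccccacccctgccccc
Acta1, chr8:123894776-123894925, minus strand: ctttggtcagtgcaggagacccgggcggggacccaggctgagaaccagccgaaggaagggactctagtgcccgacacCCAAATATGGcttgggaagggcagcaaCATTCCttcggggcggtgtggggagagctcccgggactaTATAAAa
Myl3, chr9:110763528-110763677, plus strand: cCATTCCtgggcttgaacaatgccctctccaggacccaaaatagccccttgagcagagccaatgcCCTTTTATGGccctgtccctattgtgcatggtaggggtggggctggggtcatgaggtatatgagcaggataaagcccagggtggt
Ldb3, chr14:34588682-34588831, minus strand: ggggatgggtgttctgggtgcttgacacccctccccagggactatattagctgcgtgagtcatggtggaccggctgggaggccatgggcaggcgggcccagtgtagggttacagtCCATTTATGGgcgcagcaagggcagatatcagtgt
Myom1, chr17:71019407-71019556, plus strand: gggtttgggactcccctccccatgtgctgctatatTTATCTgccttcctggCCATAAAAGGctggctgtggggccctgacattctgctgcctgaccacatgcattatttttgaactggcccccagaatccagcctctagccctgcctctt
Myoz2, chr3:123034988-123035137, minus strand: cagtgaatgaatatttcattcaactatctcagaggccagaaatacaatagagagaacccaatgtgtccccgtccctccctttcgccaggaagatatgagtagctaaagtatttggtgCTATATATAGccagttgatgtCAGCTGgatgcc
Lmod2, chr6:24597621-24597770, plus strand: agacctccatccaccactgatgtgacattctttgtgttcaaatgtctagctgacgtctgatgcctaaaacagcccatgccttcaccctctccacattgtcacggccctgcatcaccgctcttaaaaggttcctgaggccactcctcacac

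The CArG box began 47 bases before the start in Actc1, 73 in Acta1, 85 in Myl3, 35 in Ldb3 and 99 in Myom1. The MEF2 site of Myoz2 began 33 bases before the start. Lmod2 held none of the 6 motifs in this window, which says only that these letters are not there. Log2 ratios of PD1/PEM to Isotype of the 5 genes with a CArG box ran from -0.87 (Actc1) over -0.83 (Myl3), -0.59 (Myom1) and -0.58 (Ldb3) to -0.42 (Acta1), the last being the median of all 35 members. Members whose window held no CArG box ran from -0.84 (Tnni1, on few UMIs) and -0.80 (Synpo2l) to 0.04 (Lmod2). A link between the box and the ratio was not tested. A motif match is a description of the letters and not evidence of binding.

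PD1/PEM was compared with Isotype first. Of the 35 members, 33 were lower in PD1/PEM, 30 of them with an interval below equality, and none was higher beyond counting error, where 18% of all genes were lower and 20.6% higher beyond counting error. The median log2 ratio was -0.42, beside 0.01 over the 14748 genes with at least 50 UMIs in the pair. A member was called when it differed at least 1.5-fold with an interval that excluded equality: 9 of 35 were called lower and 0 higher. Over all genes 3.61% were called lower and 4.96% higher. The groups ordered by median log2 ratio were thick filament (-0.58), desmin, chaperones and turnover (-0.53), thin filament (-0.47), titin and M-band (-0.36) and Z-disc (-0.29). In bulk sums such as these, fewer cells of a type, less RNA per cell and less free RNA caught with other cells cannot be told apart. Cardiomyocyte markers that are not members were lower in 9 of 10, with a median log2 ratio of -0.27 and none called, from Cacna1c (-0.47) and Slc8a1 (-0.39) to Ctnna3 (-0.01) and Tnni3k (0.34). Haemoglobin and Alas2 (erythroid list) were higher in 5 of 5, with a median of 0.89. A list of 7 genes known to mark atrial muscle, chosen after values had been seen, was lower beyond counting error in 6 and called lower in 5, with a median log2 ratio of -0.90. It ran from Bmp10 (-3.22, the lowest of the 14748 genes), Nppa (-1.68) and Sln (-1.01) over the atrial light chains Myl7 (-0.90) and Myl4 (-0.80) and Mybphl (-0.57) to Kcnj3 (0.87). Nppa, the atrial natriuretic peptide, stood at 3430 CPM in Isotype, 1071 in PD1/PEM and 1956 in PDL1/ATZ. The part of these 3 lists in the result was not tested.

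**Figure D1:**
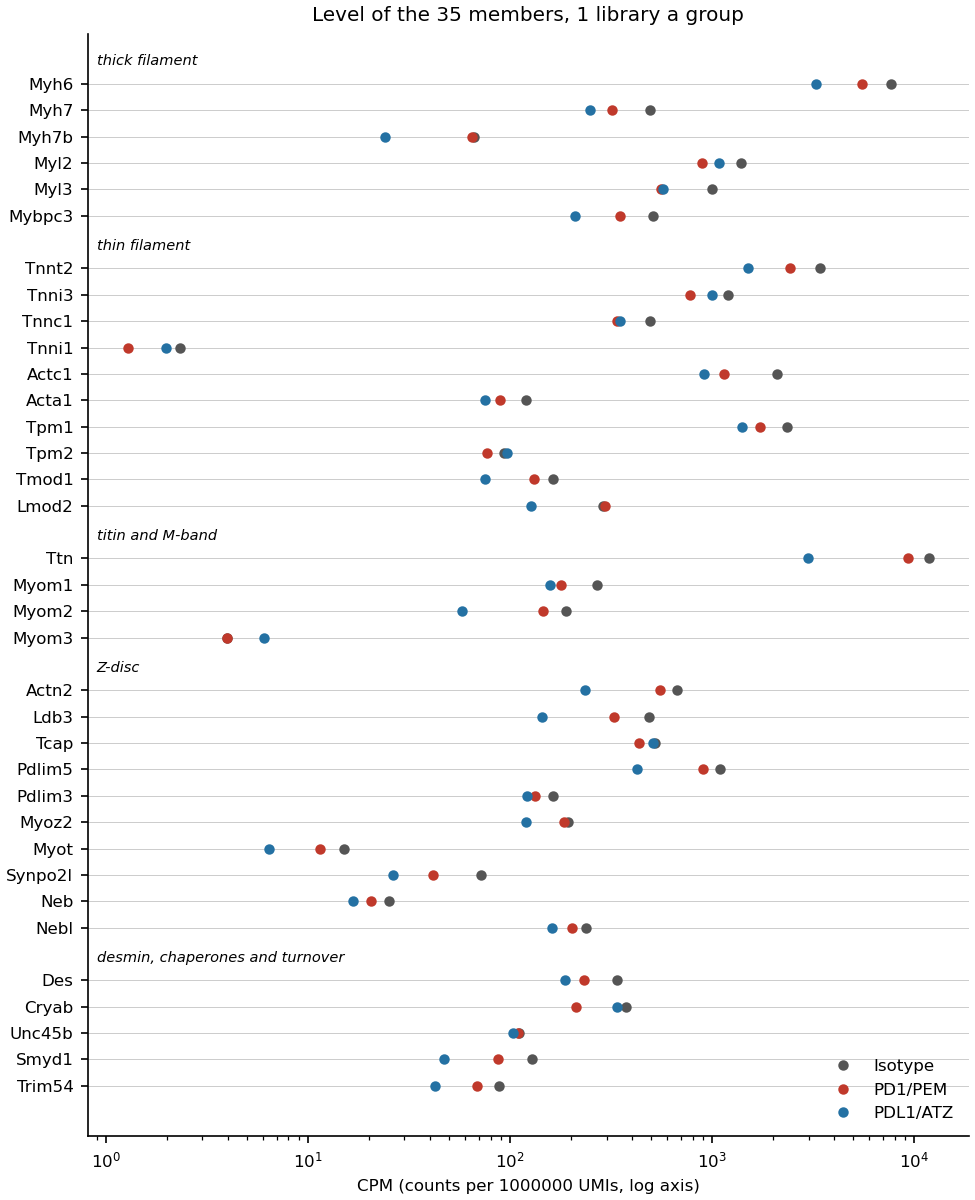
Level of each of the 35 members in CPM (log axis), 1 point per library, grouped by the place of the protein. Isotype lies at or to the right of PD1/PEM in all rows but Lmod2 and Myom3, and PDL1/ATZ lies lowest for Ttn at 2972.

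The thick filament had the lowest median of the groups, but not the lowest summed level. The summed PD1/PEM to Isotype ratio was 0.697 for the thick filament, 0.686 for the thin filament and 0.685 for desmin, chaperones and turnover. It was 0.788 for titin and M-band and 0.807 for the Z-disc. Myh6, the alpha heavy chain (chromosome 14, 54941921 to 54966927), stood at 7625 CPM in Isotype, 5531 in PD1/PEM and 3274 in PDL1/ATZ. It was 1.38-fold lower in PD1/PEM (interval 1.37 to 1.39), short of the 1.5-fold call. Myh7, the slow beta heavy chain that lies next to it on the same strand (54970684 to 54994626), stood at 489.9, 319.4 and 249.2 and was called lower in PD1/PEM, 1.53-fold (1.48 to 1.59). As a share of the Myh6 and Myh7 UMIs together, Myh7 made up 6.04% (interval 5.91 to 6.17) in Isotype, 5.46% (5.31 to 5.61) in PD1/PEM and 7.07% (6.86 to 7.29) in PDL1/ATZ. The 3 intervals did not overlap, with PD1/PEM lowest and PDL1/ATZ highest. These paralogs are near-identical over long stretches, so reads could have been split between them.

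The myosin light chains, which wrap the lever arm of the myosin head, lay further apart between the control and PD1/PEM. Myl2, the ventricular regulatory chain, stood at 1381 CPM in Isotype, 889.3 in PD1/PEM and 1078 in PDL1/ATZ, and Myl3, the ventricular essential chain, at 993.2, 557.9 and 567.7. Myl3 was 1.78-fold lower in PD1/PEM (1.73 to 1.83) and Myl2 1.55-fold (1.52 to 1.59), both called. Mybpc3, myosin-binding protein C, a brake on cross-bridges, stood at 509.4, 348.5 and 209.5, a 1.46-fold lower value in PD1/PEM (1.41 to 1.51). Myh7b, an ancient myosin heavy chain gene, stood at 66.1, 64.7 and 24.1, and its ratio of PD1/PEM to Isotype was 0.978 with an interval of 0.896 to 1.07. Myh7b was thus the thick filament gene that did not differ beyond counting error in PD1/PEM, while in PDL1/ATZ it was called lower, 2.74-fold (2.44 to 3.1).

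On the thin filament, Actc1 (cardiac alpha actin, chromosome 2, 114047282 to 114053548) had the lowest ratio of all members. It stood at 2082 CPM in Isotype, 1138 in PD1/PEM and 906.1 in PDL1/ATZ, 1.83-fold lower in PD1/PEM (1.80 to 1.86). Acta1, the skeletal alpha actin that the heart also expresses, stood at 119.6, 89.5 and 75.4 and was 1.34-fold lower (1.246 to 1.433). Acta1 therefore made up 5.43% of UMIs of the pair in Isotype (5.20 to 5.67), 7.29% in PD1/PEM (6.92 to 7.68) and 7.68% in PDL1/ATZ (7.26 to 8.12). The Isotype interval lay below both others, and those of PD1/PEM and PDL1/ATZ overlapped. The coding regions of the 2 actins are near-identical, so these shares rest on how the 3′ ends were assigned.

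The troponin and tropomyosin genes, the calcium switch of the thin filament, were all lower in PD1/PEM beyond counting error, with log2 ratios from -0.84 (Tnni1) to -0.27 (Tpm2). Tnnt2 stood at 3415, 2414 and 1501 CPM in Isotype, PD1/PEM and PDL1/ATZ, Tnni3, the inhibitory subunit, at 1199, 780.6 and 996.2, and Tnnc1, the calcium-binding subunit, at 490.8, 339.4 and 351.3. Their log2 ratios of PD1/PEM to Isotype were -0.50, -0.62 and -0.53, of which Tnni3 was called. Tnni1, the slow skeletal isoform of the fetal heart, was counted 39, 19 and 30 times. It was called lower in PD1/PEM with an interval of 1.03 to 3.33-fold, on the fewest UMIs of any member, and was 0.195%, 0.165% and 0.198% of troponin I UMIs with overlapping intervals. Tpm1 stood at 2335, 1724 and 1399 and Tpm2 at 93.0, 77.1 and 96.2. Tpm1 was 1.355-fold lower in PD1/PEM (1.333 to 1.376) and Tpm2 1.21-fold (1.12 to 1.30).

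The genes of the proteins that cap and extend the pointed end of the thin filament differed in their PD1/PEM ratios, with neither called. Tmod1, the cap, stood at 162.9, 131.9 and 75.1 CPM, 1.23-fold lower in PD1/PEM (1.16 to 1.31). Its PDL1/ATZ to Isotype ratio was 0.461 (0.430 to 0.494), near that of Lmod2. Lmod2, leiomodin, which lengthens the filament, stood at 287.0, 296.0 and 127.0. Its PD1/PEM to Isotype ratio was 1.03 (0.990 to 1.07), the highest of the 35, and its PDL1/ATZ to Isotype ratio was 0.443 (0.420 to 0.467). With each cell given the same weight, the log2 ratio of Lmod2 in PD1/PEM was -0.10 in place of 0.04, and in cells of at most 25% mitochondrial UMIs it was 0.35.

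**Figure D2:**
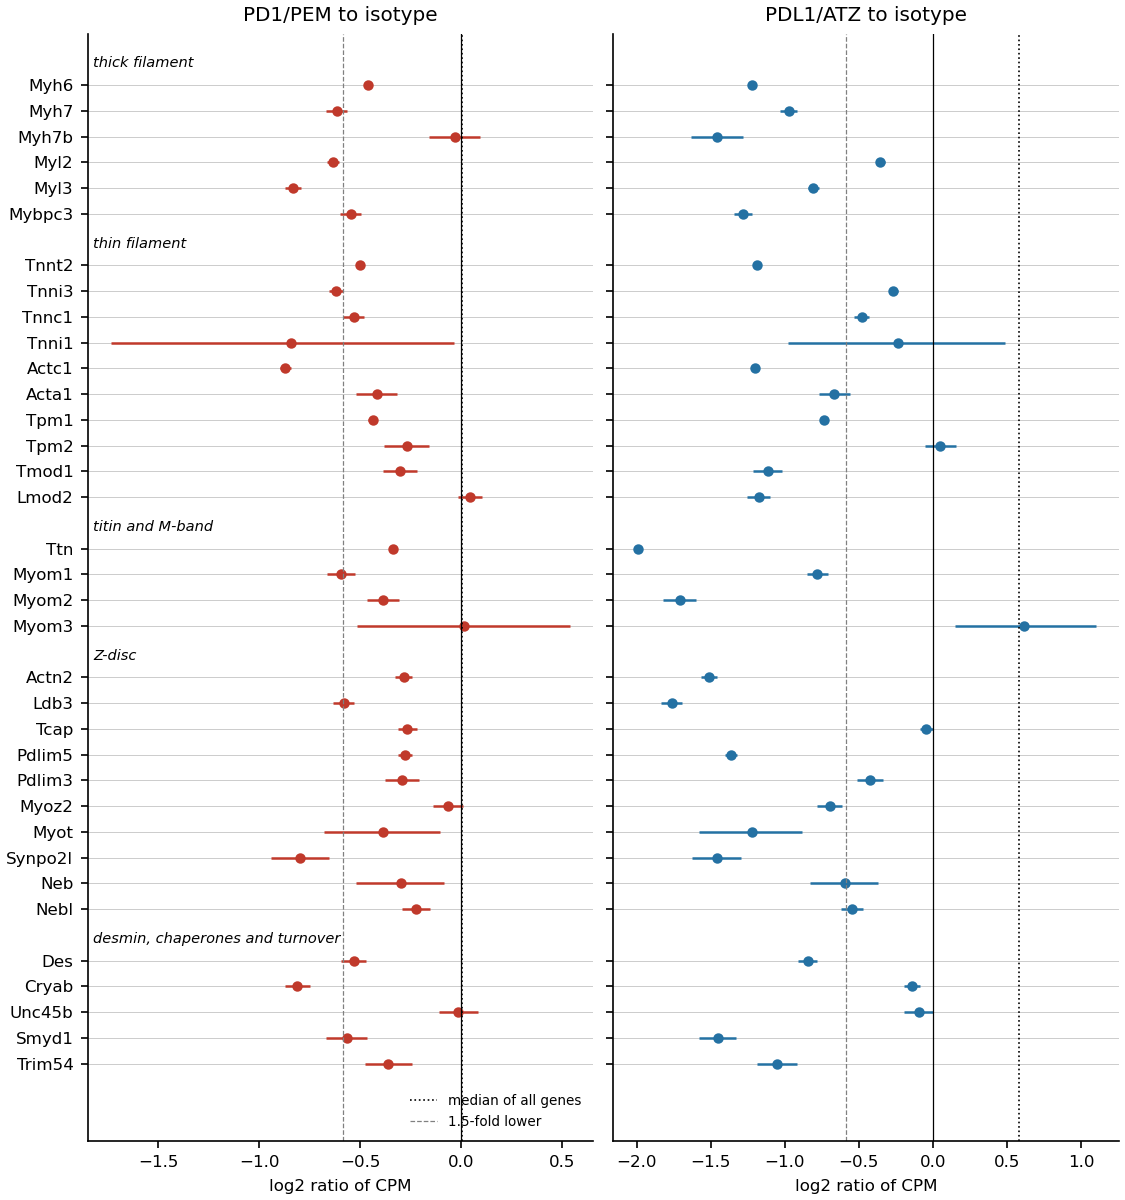
Log2 ratio to Isotype of each member in PD1/PEM (left) and PDL1/ATZ (right, on a wider axis), with 95% counting intervals as lines. The dotted line is the median of all genes (0.01 and 0.58), the dashed line 1.5-fold lower; both panels use the same Isotype library as denominator.

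Of titin and its M-band partners, 3 of 4 were lower in PD1/PEM beyond counting error, and 1 was called. Ttn, whose gene spans 279 kb of chromosome 2 (76703980 to 76982547), stood at 11782 CPM in Isotype, 9326 in PD1/PEM and 2972 in PDL1/ATZ. It was 1.263-fold lower in PD1/PEM (1.255 to 1.272) and 3.96-fold lower in PDL1/ATZ (3.92 to 4.01). Myom1, myomesin, which crosslinks thick filaments at the M-band, stood at 270.4, 179.0 and 157.3 and was called lower in PD1/PEM, 1.51-fold (1.44 to 1.59). Myom2 stood at 190.0, 145.2 and 58.1, 1.31-fold lower in PD1/PEM (1.24 to 1.38). Myom3, the third myomesin, was counted 66, 59 and 92 times. Its log2 ratio was 0.02 in PD1/PEM, where the interval held equality, and -0.18 with each cell given the same weight.

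Of the 10 Z-disc genes, 1 was called lower in PD1/PEM. That gene was Synpo2l, an actin-bundling protein of the Z-disc, at 72.1, 41.5 and 26.2 CPM in Isotype, PD1/PEM and PDL1/ATZ, 1.74-fold lower in PD1/PEM (1.58 to 1.92). Actn2, the alpha-actinin that crosslinks actin at the Z-disc, stood at 672.1, 552.2 and 235.5. Ldb3 (Cypher), a PDZ and LIM protein that binds alpha-actinin, stood at 486.5, 325.3 and 143.4, a log2 ratio of -0.58 that falls just short of 1.5-fold. Pdlim5 stood at 1094, 902.5 and 424.7, and Pdlim3 at 162.9, 133.0 and 121.2. The balance of these PDZ and LIM genes stood apart in PDL1/ATZ, where Pdlim3 made up 22.2% of UMIs of the pair (21.3 to 23.1), against 13% (12.5 to 13.4) in Isotype and 12.8% (12.3 to 13.4) in PD1/PEM.

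The other 5 Z-disc genes had log2 ratios in PD1/PEM from -0.39 (Myot) to -0.07 (Myoz2), and none was called. Tcap (telethonin, which ties titin ends at the Z-disc) stood at 523.3, 434.9 and 506.9 CPM, 1.2-fold lower in PD1/PEM (1.17 to 1.24). Myoz2, calsarcin, an alpha-actinin partner that binds calcineurin, stood at 193.7, 185.1 and 119.4, with a PD1/PEM ratio of 0.956 (0.908 to 1.01). Nebl (nebulette) stood at 236.5, 202.6 and 162.0. Its skeletal relative Neb was counted 420, 302 and 252 times and held 9.62%, 9.17% and 9.31% of UMIs of the pair, with overlapping intervals. Myot (myotilin) stood at 15.0, 11.4 and 6.40, 1.31-fold lower in PD1/PEM (1.07 to 1.60).

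Among the supporting genes, Cryab was called. Cryab, the small heat shock protein that guards desmin, stood at 373.3 CPM in Isotype, 212.6 in PD1/PEM and 338.2 in PDL1/ATZ, 1.76-fold lower in PD1/PEM (1.68 to 1.83). Des, the desmin filament around the Z-discs, stood at 336.2, 232.7 and 187.0, 1.44-fold lower in PD1/PEM (1.38 to 1.51). Cryab was thus nearer to Isotype in PDL1/ATZ than in PD1/PEM, and Des was not. Unc45b, a myosin-folding chaperone, stood at 110.4, 109.4 and 103.3, and both of its ratios to Isotype held equality in their intervals. Smyd1, a muscle methyltransferase that acts with it, stood at 128.6, 86.8 and 47.0, a log2 ratio of -0.57 in PD1/PEM. Trim54, a ubiquitin ligase of the sarcomere, stood at 88.2, 68.7 and 42.6, a log2 ratio of -0.36.

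The members at the 1.5-fold limit in PD1/PEM were Myom1 (1.51-fold lower) and Myh7 (1.53) inside it, and Ldb3 (1.496) and Smyd1 (1.48) outside it. At a limit of 0.32 on the log2 scale 22 members were called lower (10.4% of all genes), and at the 2-fold limit 0 (0.434% of all genes). In cells with at most 25% mitochondrial UMIs 5 members of 33 were called lower in place of 9 of 35, against 4.34% of all genes in those cells, and the median log2 ratio was -0.32. Within ranges of mitochondrial share, the summed members of PD1/PEM stood at 0.843 of Isotype up to 20% (380 and 493 cells), 0.772 from 20 to 25% (1601 and 2109 cells) and 0.701 above 25% (4407 and 6908 cells), intervals 0.832 to 0.854, 0.766 to 0.778 and 0.698 to 0.705. The gap in the members was thus wider in the cells where the mitochondrial share was higher, and the intervals did not overlap.

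The cells were next split by how many of the 10 cardiomyocyte markers they held, after each was reduced at random to 700 UMIs so that depth was equal. These are ranges of marker counts and not cell types. Cells below 700 UMIs were left out, 483 in Isotype, 133 in PD1/PEM and 413 in PDL1/ATZ. Cells with 0 markers numbered 153 in Isotype (1.69%), 425 in PD1/PEM (6.79%) and 2500 in PDL1/ATZ (22.3%), and cells with 5 or more numbered 2301 (25.5%), 1091 (17.4%) and 366 (3.27%).

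RNA of the members was present in nearly every cell, markers or not. In cells with 0 markers the members took 3.24% of UMIs in Isotype, 2.19% in PD1/PEM and 1.69% in PDL1/ATZ, and in cells with 5 or more they took 4.06%, 3.52% and 2.52%. Ttn was detected in 98.7% of Isotype cells, 97.4% of PD1/PEM cells and 80.0% of PDL1/ATZ cells with 0 markers. The summed level in cells with 0 markers was 0.838 of that in cells with 3 or more in Isotype (0.810 to 0.867), 0.728 in PD1/PEM (0.710 to 0.747) and 0.869 in PDL1/ATZ (0.855 to 0.884). Cells with 3 or more markers made up 71.1%, 50.3% and 19.6% of cells, so these ratios rest on unlike shares of each library.

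**Figure D3:**
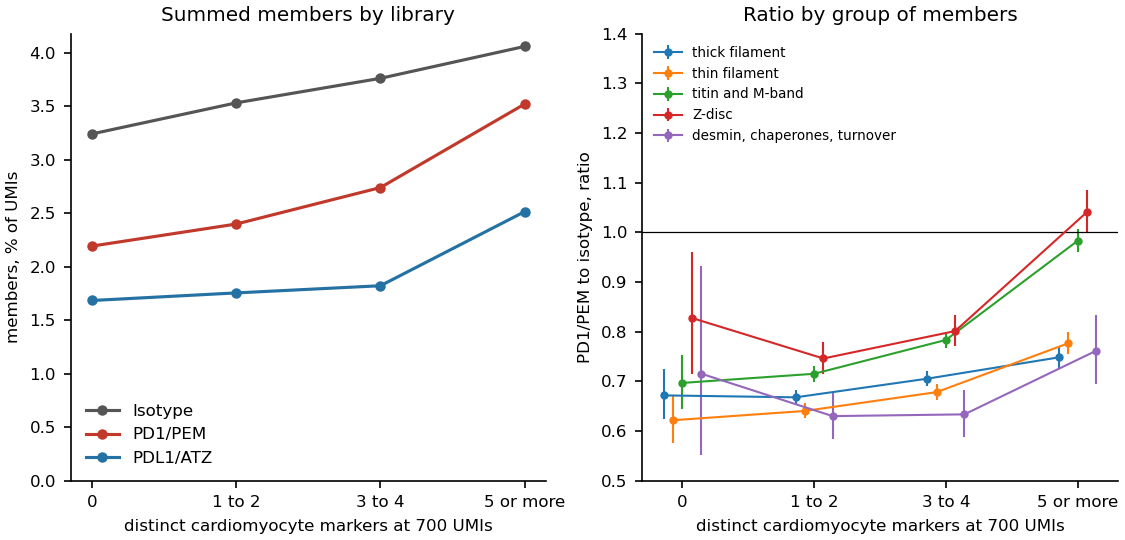
Left, members as a percent of UMIs in cells with 0, 1 to 2, 3 to 4 and 5 or more distinct cardiomyocyte markers at 700 UMIs, by library, from 3.24% to 4.06% in Isotype. Right, ratio of PD1/PEM to Isotype of each group's summed level with 95% counting intervals. Titin and M-band (0.983) and Z-disc (1.04) reach equality only in the last range among the 4. There Ttn held 21703 of 22455 titin and M-band UMIs in Isotype. Myom1 stood at 0.740 (0.611 to 0.893) in that range and Myom2 at 0.916 (0.744 to 1.12).

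The groups differed in how far they followed the markers. In PD1/PEM the level in cells with 0 markers over that in cells with 3 or more was 0.596 (0.569 to 0.625) for titin and M-band and 0.633 (0.582 to 0.689) for Z-disc, against 0.842 (0.802 to 0.884) for the thin and 0.830 (0.792 to 0.869) for the thick filament. In Isotype the same ratios were 0.735 (0.689 to 0.782), 0.687 (0.605 to 0.777), 0.965 (0.908 to 1.03) and 0.890 (0.837 to 0.946), and in PDL1/ATZ 0.657 (0.633 to 0.681), 0.820 (0.780 to 0.862), 0.954 and 0.940. Z-disc and titin thus lay below the filaments in every library. Between these 2 groups the intervals overlapped in Isotype and PD1/PEM, and titin lay below Z-disc in PDL1/ATZ. Most UMIs of the titin and M-band sum were those of Ttn.

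Single members differed in how far they followed the markers. Actc1 stood in cells with 0 markers at 0.972 of its level in cells with 3 or more in Isotype (0.846 to 1.11), 0.926 in PD1/PEM (0.820 to 1.04) and 1.07 in PDL1/ATZ (0.998 to 1.15). Myl2 (0.951, 1.004 and 1.011), Tcap (1.08, 0.943 and 0.988) and Tnnc1 (1.02, 0.908 and 1.08) likewise held equality in every interval. In PDL1/ATZ Myl3 (1.135, 1.038 to 1.242) and Tnni3 (1.074, 1.005 to 1.149) lay above equality, which their intervals held in Isotype and PD1/PEM. At the other end stood Actn2 with 0.455 (0.314 to 0.637), 0.412 (0.325 to 0.515) and 0.642 (0.560 to 0.736), and Ldb3 with 0.608, 0.436 and 0.410. Ttn lay between them with 0.738, 0.594 and 0.655, each interval below 1. Myh7b was not counted in the 153 Isotype cells with 0 markers, and stood at 0.370 (0.157 to 0.747) in PD1/PEM and 0.415 (0.25 to 0.672) in PDL1/ATZ. Lmod2 stood at 0.9205 (0.6092 to 1.337) in Isotype, 0.4135 (0.2968 to 0.5624) in PD1/PEM and 0.5825 (0.4818 to 0.7029) in PDL1/ATZ.

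**Figure D4:**
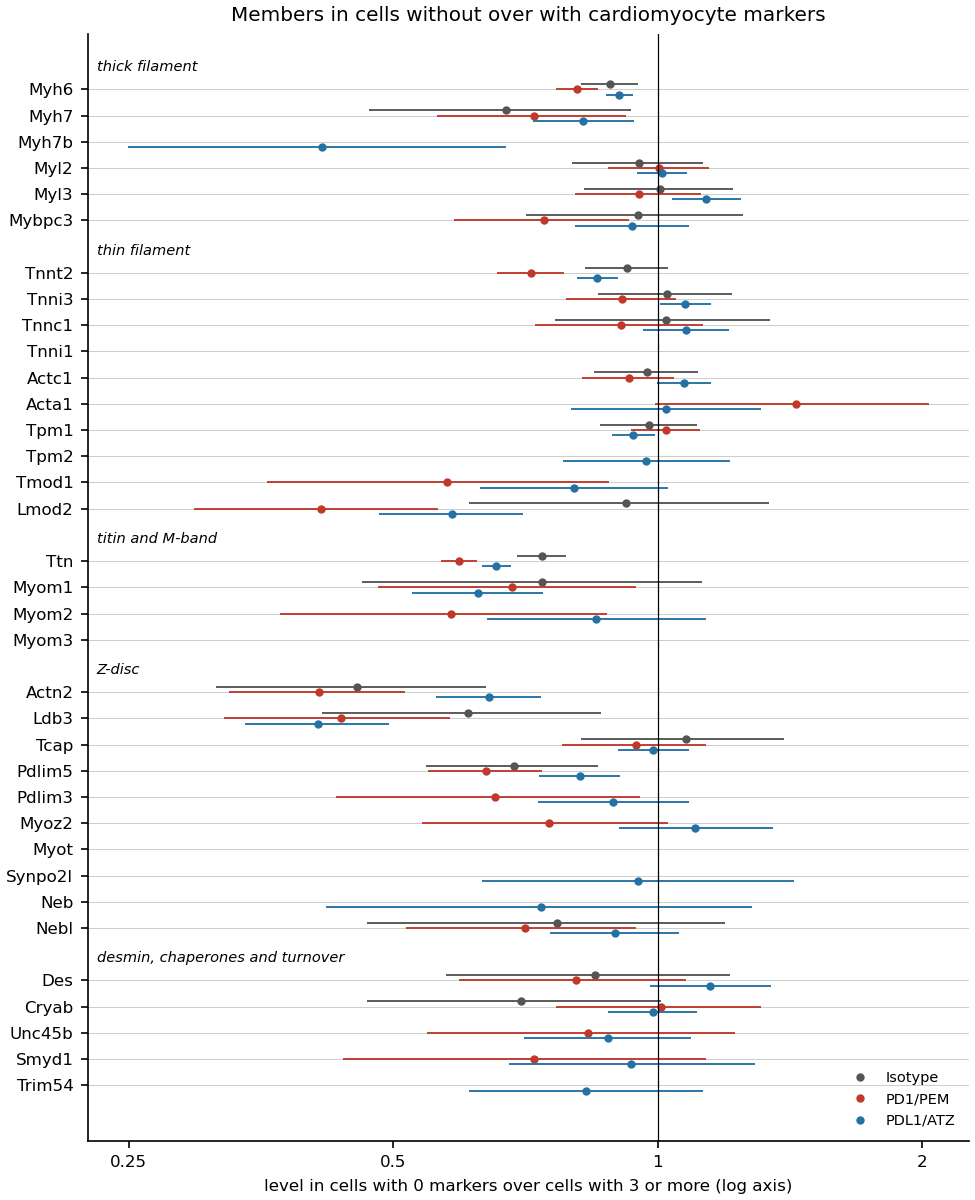
Level of each member in cells with 0 cardiomyocyte markers over its level in cells with 3 or more (log axis), per library, at 700 UMIs per cell, with 95% counting intervals; members with at least 20 UMIs in the cells with 0 markers are drawn. Actc1 and Myl2 lie around 1 and Actn2, Ldb3 and Ttn lie below it in all 3 libraries.

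The variance of UMIs per cell was compared next. At 700 UMIs, a gene counted at random with equal chance in each cell has a variance equal to its mean. The median ratio of variance to mean over the members was 1.03, 1.04 and 1.04 in Isotype, PD1/PEM and PDL1/ATZ. Actc1 had 1.04, 0.997 and 1.07, Tnni3 0.995, 1.02 and 1.07, and Cryab 1.03, 0.999 and 1.03. Above 1.1 lay 7 members in Isotype, 8 in PD1/PEM and 5 in PDL1/ATZ, among them Ttn (1.72, 2.16 and 1.67), Myh6 (1.68, 1.58 and 1.26) and Tnnt2 (1.22 in Isotype and 1.15 in PDL1/ATZ). Since the ratio tends to be higher for genes of high mean, each was set beside genes with a mean within 1.5-fold of its own. Those of Actc1 had a median ratio of 1.14 in Isotype (18 genes) and 1.095 in PD1/PEM (45 genes), above that of Actc1. Those of Tnnt2 had 1.17 (7 genes), 1.16 (14 genes) and 1.23 (29 genes) in Isotype, PD1/PEM and PDL1/ATZ, so that Tnnt2 lay above them in the first 2 libraries and below them in PDL1/ATZ. Those of Myh6 had 1.31 in PDL1/ATZ (6 genes), above that of Myh6, and no gene matched it in the other two. Ttn lay above all 6 genes of like mean in PDL1/ATZ, and had 1 such gene in each of the other two. Actn2 had 1.11, 1.21 and 1.08 beside 1.04 for its like in all 3 libraries, and Ldb3 1.105, 1.21 and 1.09 beside 1.03, 1.02 and 1.03.

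Cells with markers of other cell types carried the members too. Cells that also held cardiomyocyte markers were not left out of the classes below, so the classes are not read as non-muscle cells. Fibroblast-marker cells, with at least 3 distinct fibroblast markers and more of these than of any other non-muscle list, held the members at 0.992 of the level in all cells in Isotype, 0.998 in PD1/PEM and 1.05 in PDL1/ATZ. With at least 5 markers the values were 0.949, 0.987 and 0.857, so the value in PDL1/ATZ passed from above to below 1. Macrophage-marker cells, 34, 21 and 61 in number, held them at 0.832, 0.895 and 0.729. Endothelial-marker cells, 2414, 2226 and 5904 in number, held them at 0.994, 0.974 and 0.944. A limit to cells with few cardiomyocyte markers, given at the end, left few fibroblast-marker cells in Isotype and PD1/PEM. Under that limit the value of fibroblast-marker cells was lower in Isotype and PD1/PEM and higher in PDL1/ATZ.

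The share of cells with a UMI of a member was next set beside the share of all cells, in macrophage-, endothelial- and fibroblast-marker cells. The source of the members' RNA in these cells, free RNA among others, was not tested. At 700 UMIs, Ttn was found in 34 of 34 macrophage-marker cells of Isotype (exact interval from 89.7%), 21 of 21 of PD1/PEM (from 83.9%) and 47 of 61 of PDL1/ATZ (77.0%, 64.5 to 86.9), against 99.7%, 98.8% and 83.4% of all cells. Full-depth medians were 1886, 2708 and 1711 UMIs in those cells and 1586, 2051 and 1033 in all cells. Actc1 was found in 76.9% of endothelial-marker cells and 76.6% of all cells in Isotype, 54.3% and 55.2% in PD1/PEM, and 47.2% and 49.2% in PDL1/ATZ. In macrophage-marker cells Actc1 was found in 28 of 34 (82.4%, 65.5 to 93.2), 6 of 21 (28.6%, 11.3 to 52.2) and 27 of 61 (44.3%, 31.6 to 57.6). Over 8 members in 3 libraries, 3 of 24 shares in macrophage-marker cells had an interval below the share of all cells, and none lay above it. In endothelial-marker cells, which are far more numerous, 8 of 24 lay below and 1 above, and in fibroblast-marker cells 0 below and 1 above. In macrophage-marker cells these were, besides Actc1 in PD1/PEM, Myh6 in PD1/PEM (17 of 21, 81.0%, 58.1 to 94.6, against 96.1% of all cells) and Tnnt2 in PDL1/ATZ (30 of 61, 49.2%, 36.1 to 62.3, against 65.4%). Each class is part of all cells it was set beside, and the share of all cells was taken as fixed. The intervals are over cells of 1 library and are narrower in larger classes, so these counts are not compared between classes. No share is read as the share of cells that express the gene.

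The PD1/PEM to Isotype difference was present in these cells as well. The summed members stood in PD1/PEM at 0.738 of Isotype in fibroblast-marker cells (0.733 to 0.743), 0.718 in endothelial-marker cells (0.713 to 0.723) and 0.788 in macrophage-marker cells (0.737 to 0.843), beside 0.733 over all cells (0.730 to 0.736). Actc1 stood at 0.540, 0.555 and 0.458 in these 3 classes and 0.546 over all cells. Ttn stood at 0.795 and 0.766 in fibroblast- and endothelial-marker cells, and in the few macrophage-marker cells at 1.02 (0.909 to 1.15).

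PD1/PEM was then set against Isotype within each range of cardiomyocyte markers. The ranges were set after the data had been seen, and ratios were not tested against each other across ranges. Actc1 in PD1/PEM stood at 0.508 of Isotype in cells with 0 markers (0.426 to 0.607), 0.524 with 1 to 2, 0.538 with 3 to 4 and 0.522 with 5 or more (0.483 to 0.564). Myl2 stood at 0.661, 0.621, 0.616 and 0.646, and Myl3 at 0.553, 0.502, 0.582 and 0.587. Des stood at 0.604, 0.668, 0.623 and 0.653. Tnni3 was higher in each range than in the one before, at 0.585, 0.620, 0.645 and 0.681, with overlapping intervals. The intervals of these 5 genes overlapped among all 4 ranges and lay below equality in each, which does not show that their ratios are equal.

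Ttn had a ratio of 0.695 in cells with 0 markers (0.643 to 0.752), 0.716 with 1 to 2, 0.788 with 3 to 4 and 0.989 with 5 or more (0.966 to 1.01). Tnnt2 had 0.597 (0.521 to 0.685), 0.656, 0.700 and 0.888 (0.847 to 0.931). Actn2 had 0.858 with 0 markers, where few UMIs left a wide interval (0.568 to 1.32) that overlapped all others, 0.638 with 1 to 2 (0.574 to 0.709), 0.819 with 3 to 4 and 1.12 with 5 or more (1.02 to 1.22). Ldb3 had 0.562 (0.354 to 0.906), 0.536 (0.465 to 0.617), 0.625 and 0.980 (0.879 to 1.09), so that its first and last intervals overlapped too. In cells with 5 or more markers the intervals of Ttn and Ldb3 held equality and that of Actn2 lay above it, while those of Actc1, Myl2 and Myl3 lay below.

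A few members were higher in PD1/PEM in the marker-rich cells. Lmod2 stood there at 288.1 CPM in Isotype and 484.5 in PD1/PEM, a ratio of 1.68 (1.46 to 1.93), against 0.702 (0.610 to 0.807) in cells with 1 to 2 markers. Myh7b stood at 77.6 and 123.1, a ratio of 1.59 (1.2 to 2.09), and Myoz2 at 203.0 and 278.9, a ratio of 1.37 (1.15 to 1.64). Nebl, Unc45b and Actn2 had ratios of 1.246 (1.05 to 1.47), 1.28 (1.001 to 1.63) and 1.12. These 6 were the members higher beyond counting error among 32 with at least 50 UMIs in those cells, where 13 were lower and the median log2 ratio was -0.18. Of the 6024 genes with as many UMIs in those cells, 11% were higher and 10.3% lower beyond counting error. In cells with 1 to 2 markers 28 of 32 members were lower beyond counting error, 0 were higher and the median was -0.53. Over the 7757 genes counted there 11.6% were lower and 12.8% higher, and the median of all genes was 0.00 in both ranges. Called at least 1.5-fold lower were 14 members with 1 to 2 markers, against 6.19% of all genes, and 5 members with 5 or more, against 5.63%.

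The marker-rich cells of both libraries were not alike in other measures. Their median full depth was 1856 UMIs in Isotype and 3139 in PD1/PEM, their marker genes took 1.69% and 1.85% of UMIs at 700, mitochondrially encoded genes 25% and 24.5%, and the erythroid list 0.372% and 0.600%. In cells with 0 markers the erythroid list took 0.457% and 0.778%. The part of these in the ratios was not tested.

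**Figure D5:**
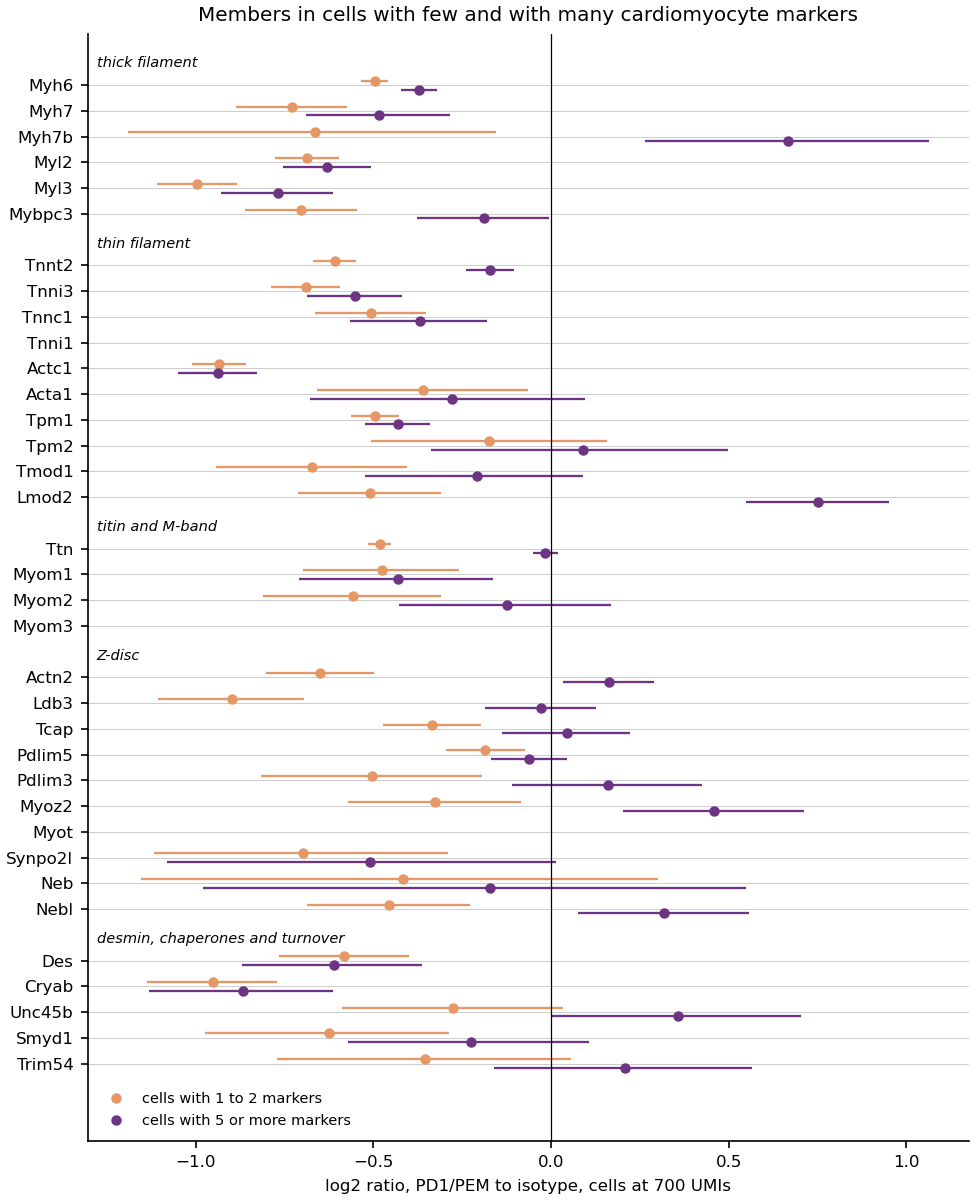
Log2 ratio of PD1/PEM to Isotype of each member in cells with 1 to 2 (orange) and with 5 or more (purple) cardiomyocyte markers, at 700 UMIs per cell, with 95% counting intervals, for members with at least 50 UMIs. The 2 intervals overlap for Actc1, Myl2, Cryab and Des, and Ttn, Actn2, Ldb3, Lmod2, Myoz2 and Myh7b lie further right in marker-rich cells.

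PDL1/ATZ was compared with the same Isotype library, so its ratios share that denominator with those of PD1/PEM. Of the 35 members, 33 were lower, 31 beyond counting error against 11% of all genes. Called at 1.5-fold lower were 24, against 5.18% of the 15496 genes. All genes here are those with at least 50 UMIs in the pair, without symbols counted only in PDL1/ATZ or only in the other libraries. The 1 member called higher was Myom3, 1.54-fold (1.11 to 2.14), where 48.4% of all genes were called higher. The median log2 ratio of the members was -0.85 and that of all genes 0.58. Cells of this library held fewer mitochondrial UMIs, which moves the total against which all other genes are scaled. With totals scaled by TMM, which sets the bulk of genes level, the members' median was -1.43 and that of Myom3 was 0.04. Without the mitochondrially encoded genes in the total it was -1.16.

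The lowest ratios in PDL1/ATZ were those of Ttn (log2 -1.99), Ldb3 (-1.76), Myom2 (-1.71) and Actn2 (-1.51). Pdlim5 (-1.37), Smyd1 (-1.45), Synpo2l (-1.46) and Myh7b (-1.46) followed. Myl2 (-0.36), Tnni3 (-0.27), Tnni1 (-0.23, on few UMIs), Cryab (-0.14), Unc45b (-0.10), Tcap (-0.05) and Tpm2 (0.05) lay closest to equality on total-UMI scaling. With TMM Tcap stood at -0.63, Tpm2 at -0.53 and Unc45b at -0.68. Cardiomyocyte markers that are not members were called lower in 10 of 10, with a median log2 ratio of -1.80, and the endothelial markers were higher in 8 of 8, with a median of 0.82. Their part in the members' ratios was not tested. The group medians were -1.25 for titin and M-band, -1.097 for the thick filament, -0.96 for the Z-disc, -0.85 for desmin, chaperones and turnover, and -0.70 for the thin filament.

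Gene span was set beside the ratios, since RNA of long genes is often caught unspliced. Across the 35 members the Spearman correlation of the log2 ratio with the genomic span was 0.26 for PD1/PEM and -0.30 for PDL1/ATZ, and across all genes 0.11 and 0.16. In PDL1/ATZ the members of 100 kb and over (Ttn, Nebl, Neb, Pdlim5, Myom1 and Smyd1) had a median of -1.07 and those under 10 kb -0.57, while all genes of these spans had 0.77 and 0.44. The points share 1 pair of libraries and are not replicates.

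Other genes of the sarcomere and Z-disc, from a list of 47 that holds no member, were mostly lower in PD1/PEM too. Of 46 with at least 50 UMIs, 41 were lower, 15 were called lower and 1 called higher, and the median was -0.38. Flnc (filamin C) stood at 258.8 CPM in Isotype, 92.6 in PD1/PEM and 32.1 in PDL1/ATZ, and Xirp1, an actin-binding protein of the intercalated disc, at 83.2, 35.9 and 11.4. These had the lowest log2 ratios of the list in PD1/PEM, -1.48 and -1.21, below that of any member. Pdlim1 (0.80) and Tpm3 (0.31), which many non-muscle cells also express, had the highest. Pdlim1 stood at 107.5, 186.6 and 143.9. The list also holds Myl7 and Myl4, the atrial light chains, at 945.6 and 1045 CPM in Isotype, 507.2 and 600.6 in PD1/PEM, and 772.1 and 844.3 in PDL1/ATZ. In PD1/PEM they were 1.86-fold (1.81 to 1.92) and 1.74-fold (1.696 to 1.785) lower, beside 1.78 for Myl3 and 1.55 for Myl2, the ventricular chains.

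Of transcription factors of sarcomere genes, 8 of 15 were lower in PD1/PEM, none was called lower, and the median log2 ratio was -0.06. Nkx2-5, the cardiac homeobox factor, had -0.50 and Hand2 -0.25. Mef2c, which binds MEF2 sites, was called higher with 0.62, and Tbx20 had 0.35. Mef2c stood at 193.2, 297.4 and 480.8 CPM in Isotype, PD1/PEM and PDL1/ATZ, and endothelial cells express it too.

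Isoforms of other muscles were given the same comparison. Of 16 skeletal isoforms, 8 reached 50 UMIs in the PD1/PEM pair. Of these 1, Tnnt3 (0.94), was called higher and none lower, with Atp2a1 at 0.34 and with Mybpc1 (-0.60) and Tnnt1 (-0.55) the lowest. Smooth muscle isoforms were lower in 8 of 9 with none called, from Cnn1 (-0.58) and Acta2 (-0.49) to Smtn (-0.02) and Mylk (0.02). The non-muscle marker lists had positive medians in PD1/PEM: fibroblast 0.15 (7 of 9 higher), endothelial 0.40 (7 of 8), macrophage 0.37 (7 of 8), mesothelial 0.40 (5 of 6) and mural 0.03 (5 of 9). Of 6 lymphocyte markers, Cd3e alone reached 50 UMIs and was called higher (0.84).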

How the data were processed

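Cells of digested hearts went through 10x Genomics 3′ capture (v3.1), per the labels. The authors deposited UMI counts per gene and cell. Cell Ranger, Seurat and the mm10 build are named in the submitters' processing notes, and no settings for them are given in those sources. Counts were summed over all deposited cells and divided by the library total (CPM). Log2 ratios used a pseudocount of 0.5 UMIs, genes with at least 50 UMIs in the pair, and exact conditional binomial intervals (95%). For PDL1/ATZ, symbols counted only there or only in the other libraries were left out of all genes. Cells were thinned to 700 UMIs with a fixed seed. Doublets were not removed. Gene positions come from GENCODE M21 (GRCm38). In counts simulated with known ratios, 95.8% of PD1/PEM to Isotype intervals held the true ratio, and 99 of 100 halved genes were called. These were Poisson draws from the Isotype profile, which have the counting error that the intervals assume. They check the calculation only, since added spread between cells or between libraries was not simulated. Python 3.11.15, scipy 1.17.1 and edgeR 4.0.16 (TMM only) were used. All 35 members are named. Of each other muscle list, the 2 lowest and 2 highest PD1/PEM ratios are named, lists of other cell types are given by counts and medians, and the atrial list was added after seeing the data. The members and lists were chosen with earlier results of these data known.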

Additional observations from a re-analysis of the deposited data

How the results depend on the processing

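The members' median log2 ratio of PD1/PEM to Isotype was -0.42, and 9 members were called lower. The median lay between -0.51 and -0.32 under the other scalings, filters and sets of cells tried, apart from the ranges that follow. It was -0.27, -0.34 and -0.49 in cells with up to 20%, 20 to 25% and above 25% mitochondrial UMIs. It was -0.57, -0.53, -0.53 and -0.18 in cells with 0, 1 to 2, 3 to 4 and 5 or more cardiomyocyte markers, a split added after seeing the data. The count called lower was 5 in cells with at most 25% mitochondrial UMIs (4.34% of all genes), 14 in cells with 1 to 2 markers (6.19%), 5 in cells with 5 or more (5.63%), 22 at a limit of 0.32 on the log2 scale (10.4%) and 0 at the 2-fold limit (0.434%). The PDL1/ATZ median of -0.85 was -1.16 without mitochondrial genes in the total, -1.43 with TMM, -0.74 with equal cell weights and -0.08 in cells over 25% mitochondrial, which are only 9 cells in PDL1/ATZ. In those 9 cells 19 of 33 members had negative log2 ratios to Isotype. Of those called lower over all cells, Myh7b (3.18), Myom1 (0.30), Actn2 (0.44), Ldb3 (0.27), Myoz2 (0.55), Myot (1.04), Neb (0.38), Des (0.19) and Trim54 (0.88) had positive ones.

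The level in cells without over cells with cardiomyocyte markers was below 1 under every alternative run; the cuts at 5 markers, here and for fibroblast markers, were chosen after seeing the data. In Isotype (0.838) it was 0.799 with 5 markers, 0.765 at 1000 UMIs (40 cells with 0 markers) and 0.735 with Atp2a2 and Pln added (13 cells). In PD1/PEM (0.728) it was 0.775, 0.679 and 0.623 with 2, 4 and 5 markers and 0.747 without mitochondrial genes. In PDL1/ATZ (0.869) it was 0.912, 0.776 and 0.670 with 2, 4 and 5 markers, 0.838 at 500 UMIs, 0.726 at 1000 and 0.803 with Atp2a2 and Pln. The level in fibroblast-marker cells over all cells was 0.982 and 0.949 in Isotype with 4 and 5 markers, and 0.987 in PD1/PEM with 5. In PDL1/ATZ it was 1.07, 0.972 and 0.857 with 2, 4 and 5. With fewer than 2 cardiomyocyte markers, counted at full depth, it was 0.847 (55 cells), 0.816 (97 cells) and 1.09 (536 cells) in Isotype, PD1/PEM and PDL1/ATZ. The cause of these shifts was not tested. No paired analysis was possible because each group is 1 library. Depth limits Tnni1, Myom3, Myot and Neb most, each with under 500 UMIs per library.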
